A study of Mus musculus with 8 samples.

Results

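Bone morphogenetic protein (BMP) signaling was followed here through 10 genes in calvarial osteoblastic cells: the ligands Bmp2, Bmp3, Bmp4 and Bmp6, the secreted antagonists Nog and Grem1, and the targets Id1, Id2, Id3 and Smad6. These genes were chosen by symbol, as ligands, antagonists and direct targets of the pathway, out of the 24421 genes listed for each library. All 10 were found and all 10 passed the filter on low values. The question asked of them was whether their mRNA levels changed during osteoblast differentiation and whether they differed between WT and Def6-/- cells.

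The cells came from the skull bones of newborn (0-3d) C57BL/6 mice, released by digestion with collagenase and dispase. RNA was taken at day 0 and after 12 days in medium with ascorbic acid and β-glycerophosphate, from WT mice and from Def6-/- mice, which lack Def6, an activator of small GTPases. Each of the 4 groups (WT day 0, Def6-/- day 0, WT day 12, Def6-/- day 12) had 2 libraries, and the 4 groups shared the strain, the digestion and the base medium. The study's methods call the libraries of a group biological replicates, and the labels do not add whether these came from separate mice or cultures, so the p-values measure the spread between these libraries.

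BMP ligands are dimers of the TGF-β superfamily that bind type I and type II serine/threonine kinase receptors. The receptors phosphorylate Smad1, Smad5 and Smad9, which enter the nucleus with Smad4 and activate genes such as Id1, Id2, Id3 and the inhibitory Smad6. Noggin and gremlin trap ligands outside the cell, and Smad6 feeds back on the receptors, so that ligands, antagonists and targets form a loop. In bone, BMP2, BMP4 and BMP6 are known to promote osteoblast differentiation, whereas BMP3 is known to restrain it.

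Values are given as normalized CPM, that is, reads scaled to the reads on genes of a library with TMM factors, which adjust for differences in RNA composition. Between 2414856 and 3482838 reads were counted on genes per library, which is between 28.8% and 35.3% of all reads. A log2 fold change is the difference between group means of log2(normalized CPM + 1), tested two-sided with limma in 1 model of all 4 groups over the 12348 genes that passed the filter. On this scale the change of genes with few reads is understated. Changes between days were called at a Benjamini-Hochberg adjusted p under 0.05. A genotype difference was called where it exceeded 1.2-fold with an unadjusted p under 0.05, and the interaction of genotype and day at an unadjusted p under 0.05.

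Reads of the deleted gene, Def6, numbered 112 to 186 in the 4 WT libraries and 0 to 2 in the 4 Def6-/- libraries. The genotype in all 8 labels thus matched. The summed level of 12 osteoblast markers was 36477 to 51977 normalized CPM at day 0, where Bglap and Ifitm5 were at 0 in every library. At day 12 it was 95367 to 133483, and all 12 were detected. Col1a1 and Col1a2 were the largest parts of this sum, with means of 49909 and 35703 in WT cells at day 12. Of the 12 markers, 11 had a positive log2 fold change over the days in each genotype, while Spp1 went from 4635 to 2479 in WT cells. The 14 macrophage markers summed to 208 to 443 at day 0 and to 3422 to 6763 at day 12, and none of them was at 0 at day 12. The 8 adipocyte markers summed to 8.65 to 13.8 at day 0 and to 37.6 to 93.5 at day 12. The 8 chondrocyte markers summed to 2078 to 3966 at day 0 and to 1452 to 1888 at day 12. Col2a1 was the largest part of the chondrocyte sum, with means of 2673 and 901 in WT cells at day 0 and day 12. Of 7 chondrocyte markers tested, 5 had a positive log2 fold change over the days in each genotype. The chondrocyte sum thus does not stand for the whole list. The 10 endothelial markers summed to 14.3 to 23.9 over all libraries, with Emcn and Tie1 at 0 in every library. In bulk RNA, fewer cells of a type and less RNA per cell cannot be told apart. The WT day 0 libraries stood apart from each other: their median absolute log2 difference per gene was 0.51, against 0.19 to 0.22 in the other 3 groups. Between them 2389 genes differed by more than 2-fold. In WT day 0 replicate 1, 34.9% of reads did not align uniquely, against 21.4% to 26.6% in the other libraries. Its share of reads on genes, 28.8%, was the lowest. The part of these read shares in the differences was not tested. The 8 smooth muscle and pericyte markers summed to 17950 in WT day 0 replicate 1 and to 7485 in replicate 2, against 9212 and 9026 in Def6-/- cells at day 0 and 2876 to 3066 at day 12. Results on the 10 genes that rest on the WT day 0 libraries are therefore given with and without each of them. Those on other genes of the pathway are given by counts for the day changes and in words for the genotype differences. Without a library its group is a single sample, which is assumed to vary like the other groups. Without a WT day 0 library, the pair that differed most also leaves the shared estimate of the spread. More of all tested genes were then called in each comparison, so a call in such a fit is not added support.

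From day 0 to day 12, 8 of the 10 genes changed when the change was averaged over both genotypes. The 4 ligands Bmp2, Bmp3, Bmp4 and Bmp6 rose, and Nog, Id1, Id3 and Smad6 fell. Among all tested genes, 19.3% rose and 12.7% fell by the same rule. In 9 of the 10 genes, all 4 libraries of day 12 lay beyond all 4 libraries of day 0: the 4 ligands lay above and Nog, Id1, Id2, Id3 and Smad6 lay below. Among all tested genes, 21.9% lay above and 16.8% lay below in this way. Grem1 was the exception, since its libraries overlapped between the days. The averaged comparison was added after the data had been seen.

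**Figure D1:**
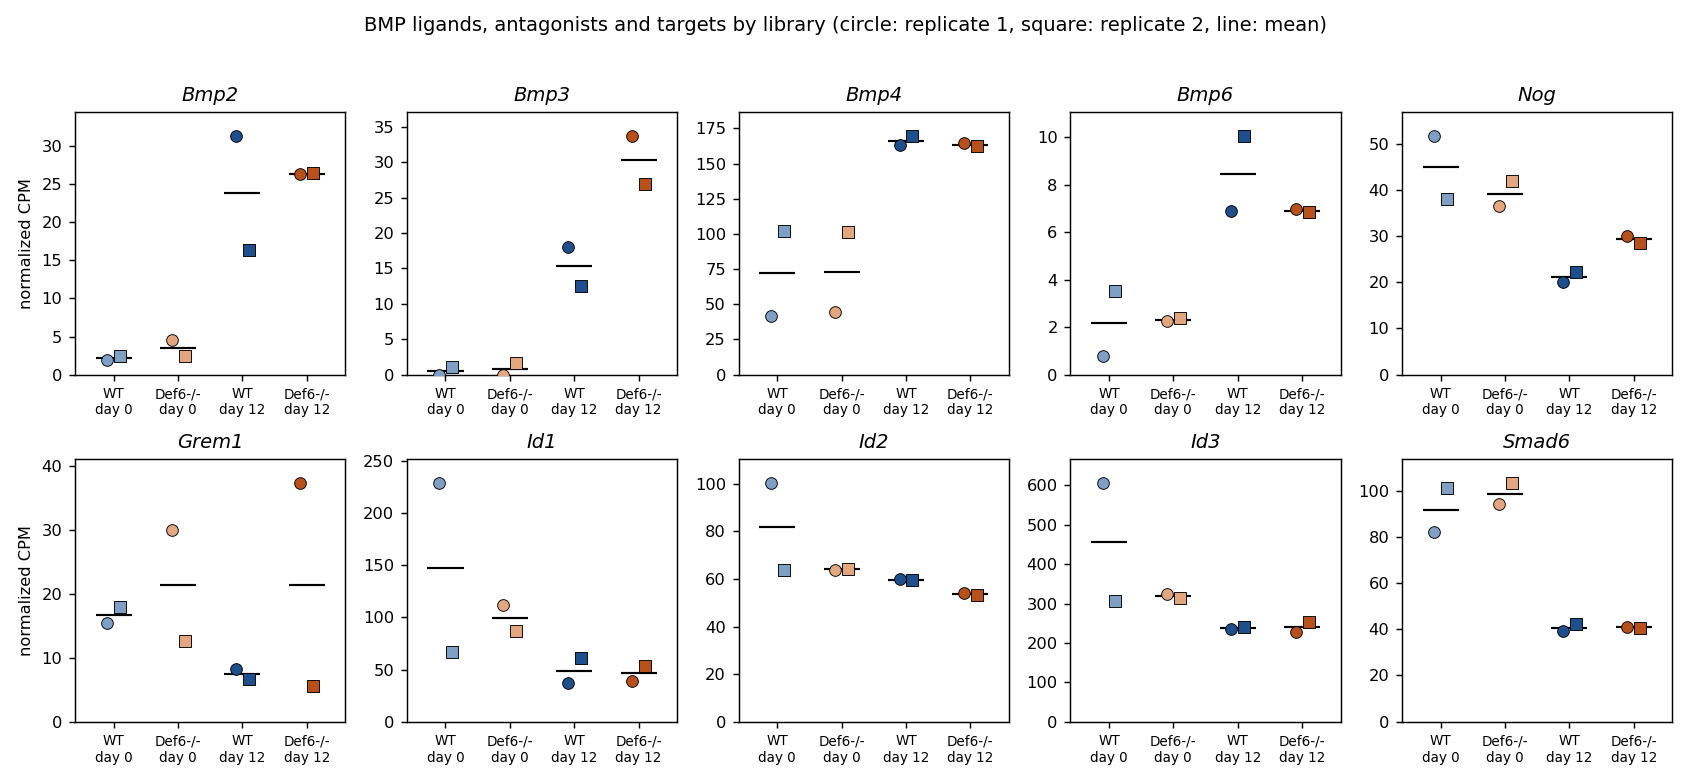
Normalized CPM of the 10 genes (vertical axes, linear, starting at 0) in the 8 libraries, by group; circles are replicate 1, squares replicate 2 and lines the means of 2 libraries. The 4 ligands are higher at day 12 in every library, Smad6 falls from between 82.1 and 103 to between 39.0 and 42.3, and Grem1 is high in 1 of the 2 Def6-/- libraries of each day.

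Within WT cells 5 of the 10 genes were called: Bmp2, Bmp3 and Bmp6 rose and Nog and Smad6 fell, where 12.7% of all tested genes rose and 5.63% fell. Within Def6-/- cells 3 were called: Bmp2 and Bmp3 rose and Smad6 fell, where 12% of all tested genes rose and 4.79% fell. The WT and Def6-/- comparisons use separate libraries but share the estimate of the spread. Without WT day 0 replicate 1, 4 of the 10 genes were called in WT cells and 7 in Def6-/- cells, and without replicate 2 these counts were 9 and 7. The same fits called 25.1% of all tested genes in WT cells and 34.8% in Def6-/- cells without replicate 1, and 46.1% and 35.1% without replicate 2. The averaged comparison called 8 without replicate 1, with 43.8% of all tested genes, and 9 without replicate 2, with 52.4%, the ninth being Id2. A call in 1 genotype and not in the other is not a difference between the genotypes, and the interaction called none of the 10 genes, against 1.12% of all tested genes.

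**Figure D2:**
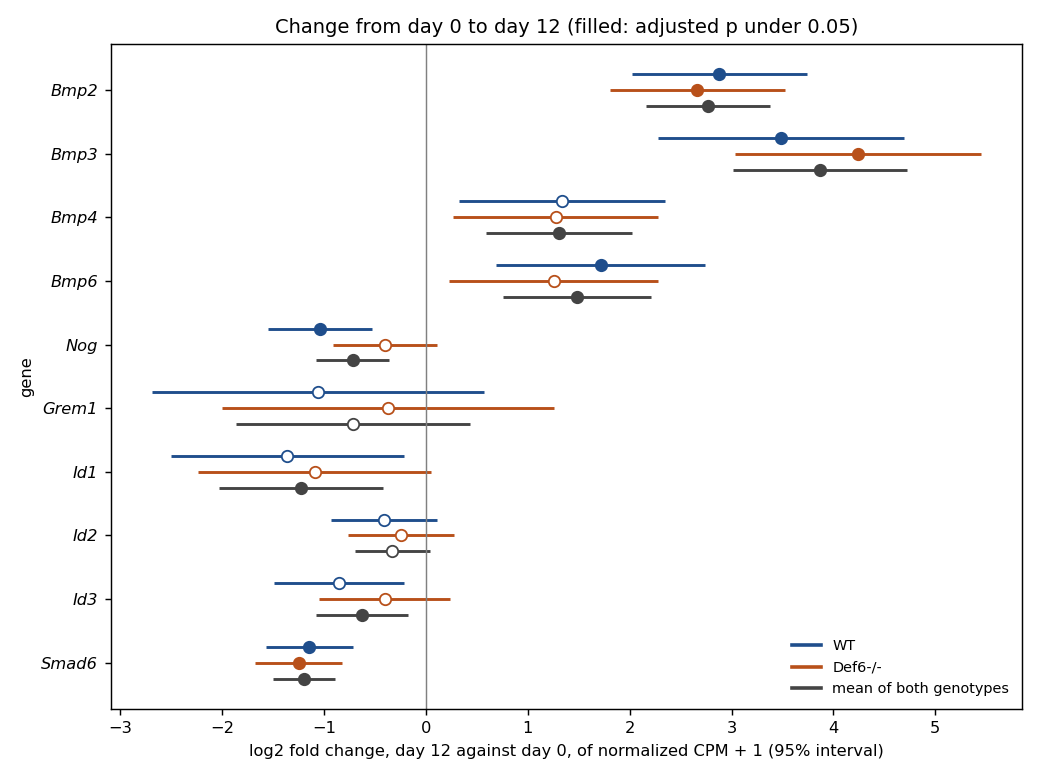
Log2 fold change of normalized CPM + 1 from day 0 to day 12 for each gene (horizontal axis), with 95% intervals from limma, in WT cells (blue), Def6-/- cells (orange) and as the mean of both (grey); filled points have an adjusted p under 0.05. The ligands lie to the right of 0, from 1.25 for Bmp6 in Def6-/- cells to 4.24 for Bmp3 in Def6-/- cells, and the antagonists and targets lie to the left.

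Promoters are shown for genes that changed over the days, the ligands upward and the targets downward, because Smad complexes are known to bind short motifs near their targets. RefSeq start sites on GRCm38.p6 were matched for 6 of the 10 genes, and each window runs 5′ to 3′ on the strand of the gene, from 250 bases before the start site to 50 after it. The 4 windows below belong to matched genes that changed in the averaged comparison. Capitals mark CAGAC, the Smad binding element, or GTCTG, the same motif on the other strand. GGCGCC, the palindromic GC-rich element of Smad1 and Smad5, and TATAAA were searched on both strands as well. GGCGCC reads the same on both strands, and no matches of different motifs overlapped.
Bmp4, chr14:46390620-46390919, - strand: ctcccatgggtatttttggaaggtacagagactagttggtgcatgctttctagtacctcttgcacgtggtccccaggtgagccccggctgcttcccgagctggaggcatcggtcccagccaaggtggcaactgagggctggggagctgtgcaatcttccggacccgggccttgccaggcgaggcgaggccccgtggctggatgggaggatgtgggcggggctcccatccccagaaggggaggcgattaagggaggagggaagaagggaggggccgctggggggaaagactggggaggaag
Bmp6, chr13:38345466-38345765, + strand: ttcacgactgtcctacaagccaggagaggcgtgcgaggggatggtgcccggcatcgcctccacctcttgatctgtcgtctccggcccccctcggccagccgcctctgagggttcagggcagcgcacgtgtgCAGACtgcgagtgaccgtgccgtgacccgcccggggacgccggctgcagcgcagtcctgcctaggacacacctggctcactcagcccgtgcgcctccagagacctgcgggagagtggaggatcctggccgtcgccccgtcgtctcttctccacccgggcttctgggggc
Id3, chr4:136143572-136143871, + strand: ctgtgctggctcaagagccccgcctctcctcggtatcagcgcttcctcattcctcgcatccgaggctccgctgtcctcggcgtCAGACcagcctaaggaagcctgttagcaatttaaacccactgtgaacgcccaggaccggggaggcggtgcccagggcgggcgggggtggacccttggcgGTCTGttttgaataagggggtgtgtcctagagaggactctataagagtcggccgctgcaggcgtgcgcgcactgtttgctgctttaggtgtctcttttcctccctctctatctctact
Smad6, chr9:64022010-64022309, - strand: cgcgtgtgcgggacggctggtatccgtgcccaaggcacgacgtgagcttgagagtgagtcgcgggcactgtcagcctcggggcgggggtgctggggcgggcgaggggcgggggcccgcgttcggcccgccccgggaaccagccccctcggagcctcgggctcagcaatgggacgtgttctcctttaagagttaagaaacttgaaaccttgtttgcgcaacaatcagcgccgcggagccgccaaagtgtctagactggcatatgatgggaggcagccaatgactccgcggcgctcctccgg

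The Id3 window held CAGAC at base -167 from the start site on the strand of the gene and at base -68 on the other strand. The Bmp6 window held it once, at base -119. The letters of the 3 motifs were not found in the Bmp4 and Smad6 windows. The windows of Id2 and Grem1, matched but not shown, held GGCGCC from base -231 and from base -78, and that of Grem1 also held CAGAC at bases -219 and 17. Of 32851 promoters of the same length, 49.6% held CAGAC, 11.9% held GGCGCC and 13.6% held TATAAA, so the presence of CAGAC in 2 of 4 windows is near the background. The GC content was 60.0% for Id3, 64.0% for Bmp4, 66.3% for Smad6 and 69.3% for Bmp6, against a median of 52.7% over all promoters. The Smad6 window held 31 CpG dinucleotides, the Bmp6 window 27, the Id3 window 19 and the Bmp4 window 12.

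Bmp3 showed the largest day change of the 10 genes on the log2 scale, in both genotypes. BMP3 is a ligand known to act against osteogenic BMPs. The gene lies at chr5:98854415-98884396 on GRCm38. In WT cells it had 0 and 3 reads at day 0, and 0 reads in a library allow up to 3 reads, or about 1.12 normalized CPM. At day 12 the WT libraries held 18.1 and 12.6 normalized CPM. In Def6-/- cells the values were 0 and 1.70 at day 0 and 33.7 and 26.9 at day 12. Every day 12 library thus lay above every day 0 library in both genotypes. On the log2 scale the change was 3.49 in WT cells (adjusted p = 0.0026, limma) and 4.24 in Def6-/- cells (adjusted p = 0.0010). Because so few reads were counted at day 0, the ratio of pooled reads is given with its exact 95% binomial interval, which covers counting error only. Bmp3 rose 28.3-fold in WT cells (interval 9.40 to 140, from 3 to 93 reads) and 34.0-fold in Def6-/- cells (interval 14.2 to 106, from 5 to 145 reads).

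Bmp2, an osteogenic ligand at chr2:133552159-133562885, had 1.97 and 2.47 normalized CPM in WT cells at day 0 and 31.3 and 16.3 at day 12. The Def6-/- libraries held 4.51 and 2.38 at day 0, and 26.3 and 26.5 at day 12. The lowest day 12 library, WT replicate 2, was still well above the highest day 0 library. The log2 fold change was 2.88 in WT cells (adjusted p = 0.0013, limma) and 2.66 in Def6-/- cells (adjusted p = 0.0019). The ratio of pooled reads was 11.3 in WT cells (exact interval 6.26 to 22.3) and 7.77 in Def6-/- cells (exact interval 4.77 to 13.3). The day changes of Bmp2 and Bmp3 were called in both genotypes without each single library.

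Bmp4 was the most abundant of the ligands per kilobase of exon. It lies at chr14:46383520-46390669 on the minus strand, and 3.96% of its exon bases overlap Gm15217 on the opposite strand. At day 0 Bmp4 was at 41.4 normalized CPM in WT replicate 1 and 44.4 in Def6-/- replicate 1, but at 102 and 101 in the 2 libraries numbered replicate 2. At day 12 the 4 libraries lay between 162 and 170. The day 0 libraries thus split by replicate number and not by genotype, whereas the day 12 libraries were close together. Over the days the log2 fold change was 1.34 in WT cells (adjusted p = 0.071, limma) and 1.27 in Def6-/- cells (adjusted p = 0.089), neither of them called, and 1.30 over both genotypes (adjusted p = 0.0129). Without WT day 0 replicate 1 the WT change was 0.69, and without replicate 2 it was 1.98. Without Def6-/- day 0 replicate 2 the Def6-/- change was 1.86 with an adjusted p of 0.048. With replicate number as a block the change was called in WT cells (adjusted p = 0.025) and in Def6-/- cells (adjusted p = 0.033), and DESeq2 also called both (adjusted p = 0.031 and 0.047). The Def6-/- change of 1.27 uses no WT library. It was called without either WT day 0 library because the shared spread was then smaller. Without WT day 12 replicate 2 the averaged change of 1.29 was no longer called (adjusted p = 0.052).

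Bmp6, an osteogenic ligand that is also known for its control of hepcidin in the liver, lies at chr13:38345107-38500302, and 5.74% of its exon bases overlap Txndc5 on the opposite strand. In WT cells it had 0.789 and 3.53 normalized CPM at day 0 and 6.89 and 10.1 at day 12. The Def6-/- libraries were close to each other, at 2.26 and 2.38 and then at 6.98 and 6.83. All day 12 libraries lay above all day 0 libraries. The log2 fold change was 1.71 in WT cells (adjusted p = 0.031, limma) and 1.25 in Def6-/- cells (adjusted p = 0.098), with ratios of pooled reads of 3.65 (exact interval 1.91 to 7.56) and 2.97 (exact interval 1.52 to 6.15). The WT call was lost without any 1 of 7 libraries, all but WT day 0 replicate 2, with adjusted p between 0.056 and 0.195, and the change was 1.04 without WT day 0 replicate 1. It was also lost with DESeq2 (adjusted p = 0.066) and when just the WT libraries were fitted (adjusted p = 0.115). The Def6-/- change uses no WT library, and it was called without either WT day 0 library because the shared spread was then smaller.

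Among the antagonists, Nog fell and Grem1 was too variable to call. Nog encodes noggin, which binds BMP2 and BMP4 and keeps them from their receptors, and lies at chr11:89300638-89302332 on the minus strand. It was at 51.7 and 38.2 normalized CPM in WT cells at day 0 and at 20.1 and 22.2 at day 12. The Def6-/- libraries were at 36.5 and 41.9 at day 0 and at 30.0 and 28.6 at day 12. The highest day 12 library was below the lowest day 0 library. For Nog the log2 fold change was -1.04 in WT cells (adjusted p = 0.0138, limma), -0.41 in Def6-/- cells (adjusted p = 0.27) and -0.72 over both (adjusted p = 0.0086). The WT change was -0.82 without WT day 0 replicate 1 and -1.25 without replicate 2, called both times. The WT call was lost without WT day 12 replicate 1 (-0.97, adjusted p = 0.113) and without replicate 2 (-1.11, adjusted p = 0.075), and when just the WT libraries were fitted (adjusted p = 0.088). The interaction of genotype and day was 0.63 for Nog (95% interval -0.09 to 1.36), and without WT day 0 replicate 2 it was 0.85 and passed the unadjusted threshold (adjusted p = 0.070, limma).

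Grem1, which encodes the antagonist gremlin, lies at chr2:113746164-113758646 on the minus strand. It was at 15.4 and 18.0 normalized CPM in WT cells at day 0 and at 8.32 and 6.70 at day 12. Replicates 1 and 2 of Def6-/- cells held 30.1 and 12.6 at day 0 and 37.4 and 5.55 at day 12. Both WT libraries were lower at day 12, while in Def6-/- cells replicate 1 was high and replicate 2 low on both days. The log2 fold change over both genotypes was -0.72 (adjusted p = 0.32, limma, 95% interval -1.87 to 0.43). Without Def6-/- day 12 replicate 1 it was -1.35 with an adjusted p of 0.025, so a single library decided the call.

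The inhibitory Smad6 showed the most even fall of the targets. Smad6 binds type I receptors and limits BMP signaling, and its gene lies at chr9:63953076-64022059 on the minus strand. It was at 82.1 and 101 normalized CPM in WT cells and 94.1 and 103 in Def6-/- cells at day 0. At day 12 it was at 39.0 and 42.3 in WT cells and 41.1 and 40.6 in Def6-/- cells. All 4 libraries of day 12 were close together and well below day 0. The log2 fold change was -1.15 in WT cells (adjusted p = 0.0037, limma) and -1.25 in Def6-/- cells (adjusted p = 0.0024), and both calls held without each single library. The mean over both genotypes was -1.20 (95% interval -1.50 to -0.90).

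The Id genes encode helix-loop-helix proteins without a DNA-binding region, which dimerize with E proteins and hold back their activity. Id1, at chr2:152736251-152737410, was at 228 and 66.4 normalized CPM in WT replicates 1 and 2 at day 0 and at 37.0 and 60.7 at day 12. In Def6-/- cells it was at 112 and 87.2 at day 0 and at 39.0 and 53.8 at day 12. WT day 0 replicate 1 was the highest library by a wide margin, and WT day 0 replicate 2 was close to the day 12 libraries. Between the days the log2 fold change was -1.36 in WT cells (adjusted p = 0.098, limma), -1.09 in Def6-/- cells (adjusted p = 0.18) and -1.23 over both (adjusted p = 0.028). When WT day 0 replicate 1 was left out the averaged change was -0.78 and the WT change -0.48. Without replicate 2 these were -1.67 and -2.24. The WT change was also called with CPM as deposited (adjusted p = 0.034) and with DESeq2 (adjusted p = 0.0051). The Def6-/- change was called when just the Def6-/- libraries were fitted (adjusted p = 0.0024) or either WT day 0 library was left out. Both are fits without the wide WT day 0 pair. The averaged call was lost without any 1 of the 4 Def6-/- libraries and without WT day 12 replicate 1, with adjusted p between 0.061 and 0.115.

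Id3 lies at chr4:136143497-136145755. It was at 606 and 306 normalized CPM in WT cells and 324 and 314 in Def6-/- cells at day 0, and at 234 and 241 in WT cells and 229 and 252 in Def6-/- cells at day 12. As for Id1, WT day 0 replicate 1 stood above all other libraries, and the other 3 day 0 libraries were close together. Its log2 fold change was -0.85 in WT cells (adjusted p = 0.069, limma), -0.41 in Def6-/- cells (adjusted p = 0.39) and -0.63 over both (adjusted p = 0.040). Without WT day 0 replicate 1 the averaged change was -0.38, and without replicate 2 it was -0.88. For Id3 too, CPM as deposited (adjusted p = 0.047) and DESeq2 (adjusted p = 0.021) called the WT change. A fit of just the Def6-/- libraries (adjusted p = 0.023) or of all but either WT day 0 library called the Def6-/- change. Both again lack the wide WT day 0 pair. The averaged call was lost without any 1 of the other 6 libraries, with adjusted p between 0.097 and 0.129, and without the filter on low values (adjusted p = 0.051).

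Id2, at chr12:25093799-25097140 on the minus strand, was at 100 and 63.6 normalized CPM in WT cells and 63.6 and 64.4 in Def6-/- cells at day 0. At day 12 it was at 60.0 and 59.5 in WT cells and 54.2 and 53.4 in Def6-/- cells. The day 12 libraries lay below the day 0 libraries by a small margin. The averaged log2 fold change was -0.33 (adjusted p = 0.155, limma, 95% interval -0.70 to 0.04), which was not called. Without WT day 0 replicate 2 it was -0.49, and without replicate 1 it was -0.17.

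**Figure D3:**
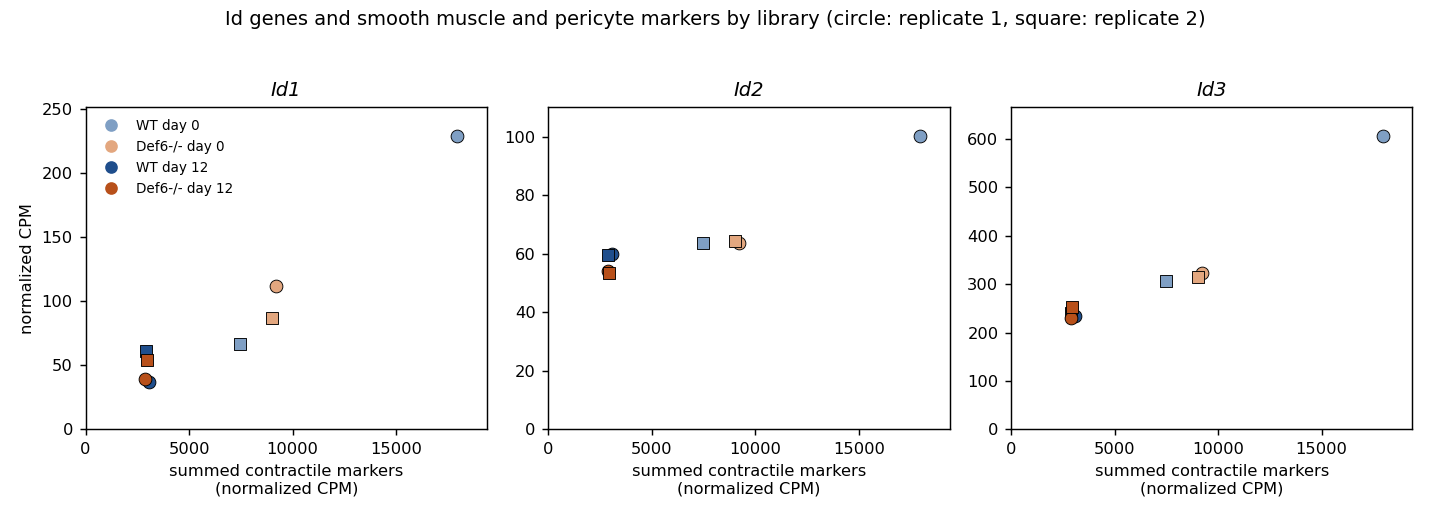
Normalized CPM of Id1, Id2 and Id3 (vertical axes) against the summed normalized CPM of the 8 smooth muscle and pericyte markers (horizontal axes) in the 8 libraries; circles are replicate 1, squares replicate 2 and colors the groups. WT day 0 replicate 1 has the highest value on both axes in all 3 panels, and the 4 day 12 libraries lie together at marker sums between 2876 and 3066.

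The sum of the contractile markers moved with the Id genes over the libraries, as the plot of Id genes against marker sums shows. Acta2 and Tagln were the largest parts of this sum, with means of 6298 and 5672 normalized CPM in WT cells at day 0. Of 7 markers of the list tested over the days, 4 were called lower in each genotype and none was called higher. Of these 7, 2 had a positive log2 fold change in WT cells and 1 in Def6-/- cells, Myh11 among them each time. WT day 0 replicate 1 had the highest marker sum (17950) and the highest Id1, Id2 and Id3, the other 3 day 0 libraries had sums between 7485 and 9212, and the day 12 libraries had the lowest sums and the lowest Id1, Id2 and Id3. The macrophage, osteoblast and adipocyte marker sums rose over the same days in which the ligands rose. The part of these cell types in the day changes was not tested. WT day 0 replicate 1 also had the highest share of reads not aligned uniquely (34.9%), and its part was not tested either. The 5 genes outside the set with a pattern most like Id1 over the 8 libraries, by Pearson correlation of log2(normalized CPM + 1), were Bcar1 (0.991), Eif1ax (0.991), Pex2 (0.988), Anapc15 (0.987) and Tmem120a (0.987). The libraries share 2 days, and WT day 0 replicate 1 is an extreme in Id1, and 576 of 12338 genes had a correlation above 0.9 with it.

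Per kilobase of exon, Id3 was the most abundant gene in every group. In Def6-/- cells at day 0 the levels in normalized CPM per kilobase were 178 ± 3.77 for Id3 and 85.9 ± 15.2 for Id1 (SD, n = 2). Bmp4, Smad6, Id2 and Nog followed at 32.4 ± 17.9, 30.8 ± 2.02, 26.2 ± 0.229 and 23.1 ± 2.25. The library range of Bmp4 overlapped those of Smad6, Id2 and Nog, so its place among them was within the spread, while these 3 did not overlap one another. Grem1 was at 5.15 ± 2.98, and Bmp2, Bmp6 and Bmp3 were below 1. In WT cells at day 0 the order was the same except that Id2 came before Bmp4, and the ranges of Id3 (254 ± 119) and Id1 (127 ± 98.8) overlapped. Those of Id2, Bmp4, Smad6 and Nog overlapped as well, so the order among them was within the spread.

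At day 12 Bmp4 had moved to the second place. It was at 74.0 ± 1.98 normalized CPM per kilobase in WT cells and at 72.7 ± 0.761 in Def6-/- cells (SD, n = 2), below Id3 at 133 ± 2.49 and 134 ± 9.16 and above Id1, which lay between 31.9 and 52.3 in WT cells and between 33.6 and 46.4 in Def6-/- cells. Id2 came next, at 24.5 ± 0.151 and 22.1 ± 0.242. Smad6 and Nog overlapped in WT cells at 12.7 ± 0.719 and 12.5 ± 0.877, whereas in Def6-/- cells Nog at 17.3 ± 0.571 lay above Smad6 at 12.7 ± 0.111. Bmp2 stood at 6.70 ± 2.97 and 7.42 ± 0.0380. Bmp6, Bmp3 and Grem1 were at 2.17 ± 0.573, 2.07 ± 0.528 and 1.81 ± 0.277 in WT cells, within each other's spread. In Def6-/- cells Grem1 was at 5.17 ± 5.42, Bmp3 at 4.09 ± 0.647 and Bmp6 at 1.77 ± 0.0271.

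Between the genotypes none of the 10 genes was called at day 12 or at day 0. At day 12, the same rule called 0.81% of all tested genes higher and 0.591% lower in Def6-/- cells, and at day 0 these were 0.988% and 1.31%, so that a set of 10 genes would hold few calls at the background rate. Of the genes called, 57.8% were higher at day 12 and 43.0% at day 0, and these shares were 70.0% and 72.3% with CPM as deposited, 71.8% and 17.0% with DESeq2 and 59.1% and 32.3% with edgeR. After adjustment 1 gene, Def6, differed at each day. Over the 10 genes the median log2 fold change was 0.01 at day 12, where that of all tested genes was -0.00054, and 0.08 at day 0, where that of all tested genes was -0.02. The number called of the 10 was 1 at day 12, Nog, without either WT day 0 library, where 3.71% and 3.66% of all tested genes were called. At day 0 it was 0 without WT day 0 replicate 1 and 3 without replicate 2, where 4.45% and 37.1% of all tested genes were called, so that 3 of 10 is near the background.

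**Figure D4:**
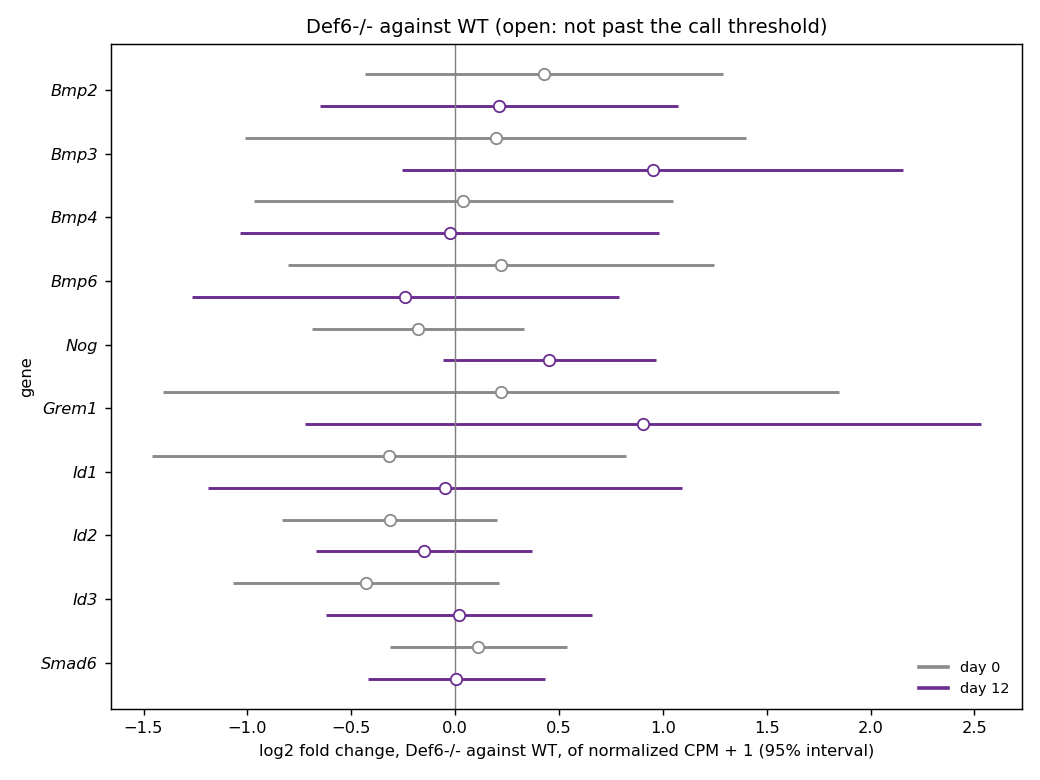
Log2 fold change of normalized CPM + 1 in Def6-/- against WT cells for each gene (horizontal axis), with 95% intervals from limma, at day 0 (grey) and day 12 (purple). All 20 intervals hold 0, with the narrowest for Smad6 and the widest for Grem1.

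Smad6 gave the narrowest limits on a genotype difference. Its log2 fold change in Def6-/- against WT cells was 0.01 at day 12 (95% interval -0.42 to 0.43, limma) and 0.11 at day 0 (95% interval -0.31 to 0.54). For Id3 the day 12 difference was 0.02 (95% interval -0.62 to 0.66), for Bmp4 -0.03 (95% interval -1.04 to 0.98) and for Id1 -0.05 (95% interval -1.19 to 1.09). With CPM as deposited the day 12 values of Bmp4 and Id1 turned to 0.05 and 0.02, and with the size factors of DESeq2 that of Smad6 turned to -0.00035.

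Bmp3 and Nog were higher at day 12 in both Def6-/- libraries than in both WT libraries, and Id2 was lower in both. Libraries lay above in this way for 16.8% of all tested genes and below for 15.9%, so 3 of 10 is near the background. The day 12 difference on the log2 scale was 0.95 for Bmp3 (95% interval -0.26 to 2.16, limma), 0.45 for Nog (95% interval -0.06 to 0.96) and -0.15 for Id2 (95% interval -0.67 to 0.37), and none of them passed the unadjusted threshold. When only the day 12 libraries were fitted, Bmp3 (adjusted p = 0.68) and Nog (adjusted p = 0.99) passed it. Nog passed it as well when either WT day 0 library was left out. In the same day 12 libraries the osteoblast marker sum was 95367 and 112390 in WT cells and 133483 and 115925 in Def6-/- cells, and the adipocyte marker sum was 37.6 and 44.4 against 66.5 and 93.5. Col1a1 and Col1a2 were the largest parts of the osteoblast sum. The part of the osteoblast and adipocyte markers in the differences was not tested.

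The Grem1 difference at day 12 rested on 1 library. Its log2 fold change was 0.90 (95% interval -0.72 to 2.53, limma), and when Def6-/- day 12 replicate 2 was left out it was 2.18 and passed the unadjusted threshold. Without Def6-/- day 12 replicate 1 it was -0.37, in the opposite direction. For Grem1 the interaction was 0.68 and not called, and without Def6-/- day 12 replicate 2 it was 1.96 and called.

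At day 0 the libraries of the 2 genotypes overlapped for all 10 genes, whereas the Def6-/- libraries lay above for 10.9% and below for 11.7% of all tested genes. The difference in Def6-/- against WT cells on the log2 scale was -0.32 for Id1, -0.32 for Id2 and -0.43 for Id3 (adjusted p = 0.92, 0.91 and 0.91, limma). With WT day 0 replicate 2 left out they were -1.20 (adjusted p = 0.0091), -0.64 (adjusted p = 0.0128) and -0.92 (adjusted p = 0.00070), all called. With replicate 1 left out instead they were 0.57, 0.0084 and 0.06, with the sign turned. The interaction for Id1, Id2, Id3 and Nog was likewise called without WT day 0 replicate 2 (adjusted p = 0.061, 0.147, 0.0074 and 0.070) and for none of the 10 genes without replicate 1, where it was called for 27% and 3.52% of all tested genes. The direction at day 0 thus depended on which of the 2 WT libraries was kept. Bmp2 (0.43), Bmp3 (0.20), Bmp4 (0.04), Bmp6 (0.22), Grem1 (0.22), Nog (-0.18) and Smad6 (0.11) were not called either.

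The rest of the pathway was described through 57 further genes in 5 lists. Of these, 52 passed the filter on low values, and Bmp8b, Gdf5, Acvr2b, Chrdl2 and Tll2 did not. Over the days 12 rose and 6 fell in WT cells (all tested genes: 12.7% and 5.63%). In Def6-/- cells 12 rose and 7 fell (all tested genes: 12% and 4.79%). With both genotypes averaged, 16 rose and 9 fell, against 19.3% and 12.7% of all tested genes. Without WT day 0 replicate 1, 14 rose and 10 fell in WT cells and 19 rose and 9 fell in Def6-/- cells, and without replicate 2 these counts were 21 and 8, and 19 and 9, beside the shares of all tested genes given above for the same fits. Of the 18 genes called in WT cells, none turned its direction when one of these libraries was left out, and Acvr2a alone was no longer called (without replicate 1). These fits called more of all tested genes than the main fit, so they are a weak check of the calls. Without either WT day 12 library the WT calls of Acvr2a, Acvrl1, Dlx2 and Rgmb, among others, were lost. The day changes of Gdf10, Bmp8a, Rgma, Smad7, Chrdl1, Tll1, Kcp, Crim1, Msx2, Atoh8 and Dlx3 were called in both genotypes without each single library.

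**Figure D5:**
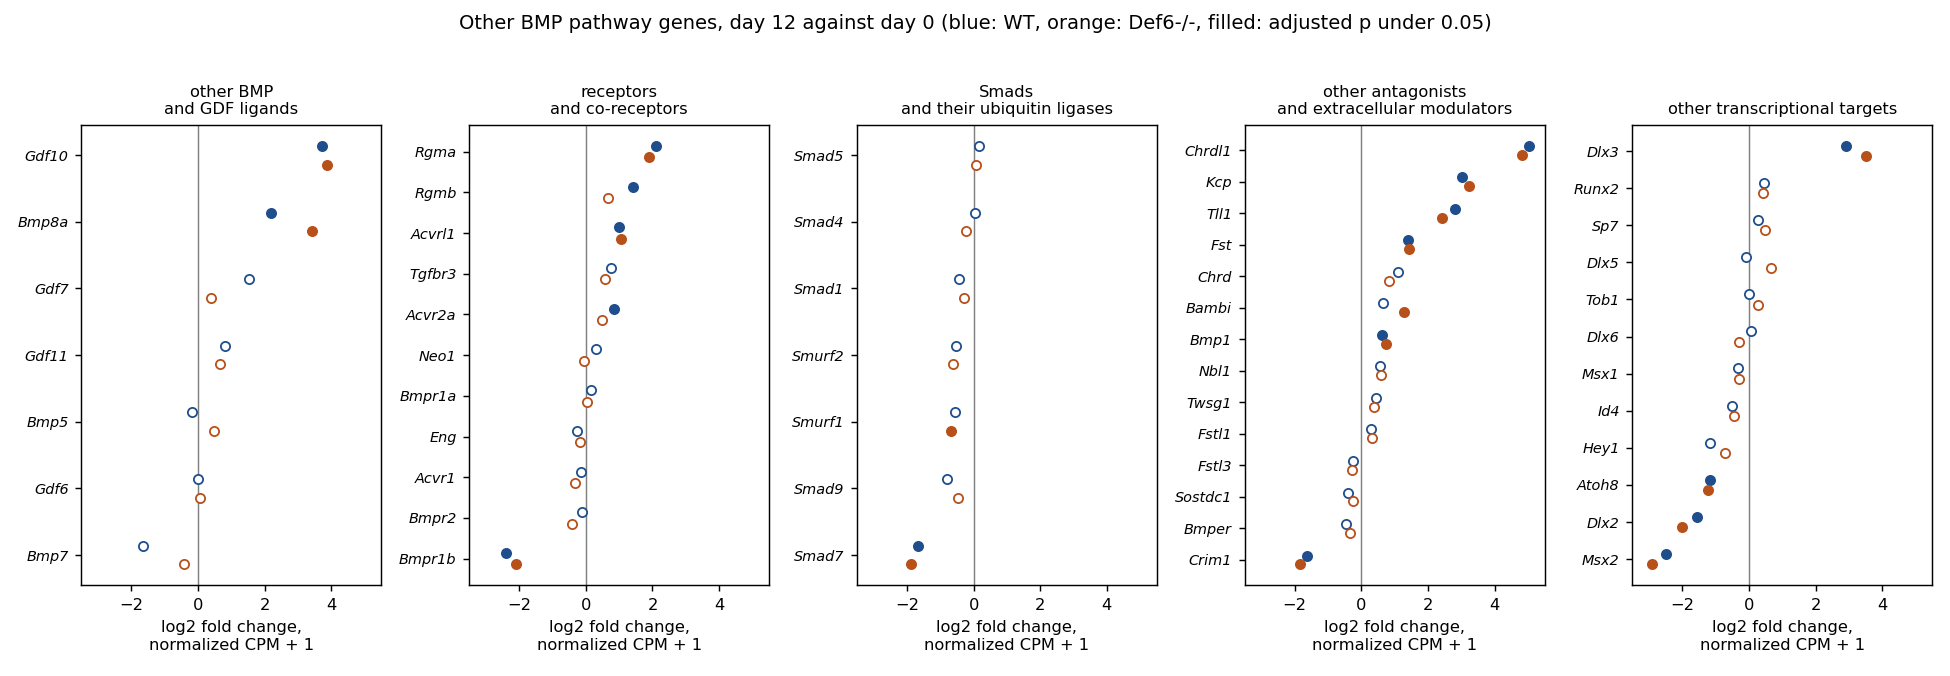
Log2 fold change of normalized CPM + 1 from day 0 to day 12 (horizontal axes) of the other pathway genes, by list, in WT cells (blue) and Def6-/- cells (orange); filled points have an adjusted p under 0.05, and Sost, which had 0 reads at day 0, is left out. Chrdl1 lies farthest to the right at 5.04 and 4.83, and Msx2 farthest to the left in Def6-/- cells at -2.93.

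Of 7 further ligands tested, 2 rose in each genotype and none fell. The shares of all tested genes that rose were 12.7% in WT cells and 12% in Def6-/- cells. Gdf10, a close relative of Bmp3, was at 24.9 and 35.0 normalized CPM in WT cells and 29.7 and 30.7 in Def6-/- cells at day 0, and at 370 and 424 and at 445 and 462 at day 12. Its log2 fold change was 3.70 in WT cells (adjusted p = 3.4e-05, limma) and 3.86 in Def6-/- cells (adjusted p = 2.1e-05). Bmp8a had 1 read in each WT library and 1 and 0 reads in the Def6-/- libraries at day 0, and 21 and 11 reads in WT cells and 34 and 22 in Def6-/- cells at day 12. Its rise was called in WT cells (adjusted p = 0.0045) and in Def6-/- cells (adjusted p = 0.00055). Bmp8a is a close copy of Bmp8b, and the counting set aside reads that aligned to several places, so reads shared by both may be missing from both.

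Of 11 receptors and co-receptors tested, 4 rose and 1 fell in WT cells (all tested genes: 12.7% and 5.63%). In Def6-/- cells 2 rose and 1 fell (all tested genes: 12% and 4.79%). Rgma, a membrane-anchored co-receptor for BMP ligands, rose by 2.12 on the log2 scale in WT cells (adjusted p = 0.0017, limma) and by 1.89 in Def6-/- cells (adjusted p = 0.0030). Rgmb, its relative, rose by 1.43 in WT cells (adjusted p = 0.010), and its log2 fold change in Def6-/- cells was 0.65 (adjusted p = 0.17). The Rgmb call was lost without either WT day 12 library. Acvrl1, a type I receptor, rose in both genotypes, by 1.03 when they were averaged, but the WT call was lost without either WT day 12 library and the Def6-/- call without any 1 of the 4 Def6-/- libraries. Bmpr1b, also a type I receptor, fell by 2.38 in WT cells (adjusted p = 0.019) and by 2.10 in Def6-/- cells (adjusted p = 0.033), calls that were lost without WT day 12 replicate 2 and without 3 of the 4 Def6-/- libraries, respectively. The main type I and type II receptors Bmpr1a and Bmpr2 were not called, with log2 fold changes between -0.40 and 0.16.

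Of 7 Smads and Smad ubiquitin ligases tested, 1 fell in WT cells and 2 fell in Def6-/- cells, and none rose. The shares of all tested genes that fell were 5.63% in WT cells and 4.79% in Def6-/- cells. Smad7, the other inhibitory Smad, was at 57.6 to 93.5 normalized CPM at day 0 and at 18.8 to 23.9 at day 12, with log2 fold changes of -1.68 in WT cells (adjusted p = 0.0041, limma) and -1.88 in Def6-/- cells (adjusted p = 0.0024). Both inhibitory Smads, Smad6 and Smad7, thus fell in both genotypes. Smurf1, a ubiquitin ligase for Smad1 and Smad5, fell by 0.67 in Def6-/- cells (adjusted p = 0.036), and the averaged comparison also called Smurf2 at -0.58 (adjusted p = 0.011). The Smurf1 call was lost without any library but those of WT day 0, and the Smurf2 call without any 1 of 3 libraries.

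Of 15 other antagonists and extracellular modulators tested, 5 rose and 1 fell in WT cells (all tested genes: 12.7% and 5.63%). In Def6-/- cells 7 rose and 1 fell (all tested genes: 12% and 4.79%). Chrdl1, a chordin-like protein that binds BMPs, was at 7.89 to 16.6 normalized CPM at day 0 and at 349 to 419 at day 12, with log2 fold changes of 5.04 in WT cells and 4.83 in Def6-/- cells (adjusted p = 5.8e-05 and 6.0e-05, limma). Tll1, a protease that cleaves chordin, rose by 2.82 and 2.43, and Kcp, a chordin-like modulator, rose by 3.02 and 3.22. Crim1, a membrane protein that binds BMPs, fell by 1.63 and 1.82.

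Of 12 other transcriptional targets tested, 1 rose and 3 fell in each genotype. Over all tested genes 12.7% rose and 5.63% fell in WT cells, and 12% rose and 4.79% fell in Def6-/- cells. Msx2, a homeobox gene of the skull, was at 253 to 367 normalized CPM at day 0 and at 32.4 to 54.4 at day 12, with log2 fold changes of -2.49 in WT cells (adjusted p = 0.00019, limma) and -2.93 in Def6-/- cells (adjusted p = 8.0e-05). Atoh8 fell by 1.18 and 1.23, and Dlx2 fell by 1.57 and 2.02. The WT call of Dlx2 was lost without either WT day 12 library and the Def6-/- call without Def6-/- day 0 replicate 1. Dlx3, a homeobox gene of osteoblasts, had 1 and 0 reads in WT cells and 2 and 2 in Def6-/- cells at day 0, and 25 and 21 reads and 54 and 36 reads at day 12, and was called in both genotypes.

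Between the genotypes, 5 of the 52 genes were higher and 1 was lower in Def6-/- cells at day 12, where 0.81% and 0.591% of all tested genes were called, and none was called at day 0. None of the 6 had an adjusted p under 0.05. Without either WT day 0 library more of the 52 genes were called at day 12 and at day 0. Those fits also called more of all tested genes, so these counts were not read as a result. Sost, which encodes sclerostin, a secreted protein of osteocytes, had 0 reads in all 4 day 0 libraries, 2 and 0 reads in WT cells at day 12 and 14 and 12 reads in Def6-/- cells at day 12. Dlx3 was higher by 1.12 on the log2 scale, Bmp8a by 0.99, Bmp5 by 1.27 and Dlx5 by 0.55, and Msx2 was lower, with a log2 fold change of -0.53. Bmp5 had between 1 and 15 reads per day 12 library. With DESeq2, 4 of the 6 calls were lost (Bmp5, Bmp8a, Dlx5 and Msx2), and edgeR lost 1, Msx2. CPM as deposited lost Dlx5 and Msx2, and a pseudocount of 0.25 lost Bmp8a and Dlx3. Sost was called without each single library, while Bmp8a and Dlx3 were no longer called without 2 of the 8 libraries, Bmp5 without 4, Msx2 without 5 and Dlx5 without 6.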

How the data were processed

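Per the labels and the methods of the study, the authors selected poly-A RNA, prepared libraries with the NEBNext Ultra II kit, sequenced them on an Illumina HiSeq instrument, processed reads with fastp, aligned them to mm10 with HISAT2 and counted them per gene with HTSeq. The deposited values are CPM, made by the authors with edgeR, and their base is the whole library, with reads that fall outside genes. Tool versions, the annotation and the strand setting are not given in the sources used here, so reads of Bmp4 and Bmp6 and of the genes that overlap them on the other strand may not have been told apart.

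Each positive CPM value was a whole number of reads in 99.957% of 114821 cases (tolerance 0.02 reads). The 49 exceptions lie in 9 macrophage and osteoclast markers that are in no list used here. CPM values were rescaled to reads on genes with TMM factors from the genes tested, and log2(CPM + 1) was fitted with limma 3.58.1 (lmFit, eBayes with trend) in R 4.3.3, with 8 libraries and 4 group means. The pseudocount was 1, and genes were kept if the mean deposited CPM reached 1 in any group. The scripts were tested on simulated data. Alternatives were a pseudocount of 0.25, no filter, only the libraries compared, a replicate block, other scalings, each library left out, and edgeR 4.0.16 and DESeq2 1.42.0 on recovered reads. Pooled read ratios have exact 95% binomial intervals for counting error only.

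The 10 genes, the lists and the rule for named genes were chosen with earlier results of these data known. After the analysis 1 gene was taken out of the list of other antagonists and modulators and is not reported here. Named genes are the 10, up to 3 called genes with the smallest p per list, comparison and direction, the 5 genes most like Id1, and Def6. Other genes named without a call (Bmpr1a, Bmpr2) or as untested were chosen after their values were seen. Exon positions and lengths come from GENCODE vM21 (GRCm38), the build of mm10. Promoters come from RefSeq (GRCm38.p6).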

Additional observations from a re-analysis of the deposited data

Results flagged for a closer look

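For 3 of the 52 other pathway genes the limma test of the interaction of genotype and day gave an unadjusted p under 0.05, against 1.12% of all tested genes. The p was 0.0029 for Sost, which had 0 reads in every day 0 library, 2 and 0 in WT cells at day 12 and 14 and 12 in Def6-/- cells. It was 0.047 for Bmp8a, which had 21 and 11 reads in WT cells at day 12 and 34 and 22 in Def6-/- cells. It was 0.045 for Dlx5, with a log2 fold change over the days of -0.09 in WT and 0.64 in Def6-/- cells. No adjusted p of the interaction was under 0.05 for any gene, while 138 genes had an unadjusted p under 0.05. The Sost call held without each single library but not with edgeR or DESeq2, the Bmp8a call was lost without any 1 of 6 libraries and the Dlx5 call without any 1 of 7. With 0 reads of Sost at day 0, its interaction equals its day 12 difference between the genotypes, 2.36 on the log2 scale in both. The Sost interaction is therefore not a separate result. No explanation was tested.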

How the results depend on the processing

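The day 12 changes of Bmp2, Bmp3 and Smad6 kept their direction and their call in both genotypes under all alternatives tried. Over the single genes of the set, 436 of the values under other settings than a left-out library kept direction and side of the threshold, 16 newly passed it (among them Bmp4, Id1 and Id3 over the days), 4 no longer did (Bmp6 and Nog in WT cells, Id3 in the averaged comparison) and 4 changed sign. The sign changed for Bmp4 (0.046) and Id1 (0.022) at day 12 between genotypes with CPM as deposited, for Smad6 (-0.00035) in the same comparison with the size factors of DESeq2, and for the Grem1 day change in Def6-/- cells with edgeR (0.021). No value of these was called in either form, and the cause was not tested.

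The number of all genes called moved by more than 1.5 times as follows. Fitted on just the groups compared, it was 100 at day 0 and 554 at day 12 between genotypes (main counts 284 and 173), and 1093 in WT cells and 3909 in Def6-/- cells over the days (main counts 2260 and 2076). Without a filter it was 459 at day 12 and 326 for the interaction, and with DESeq2 it was 85 and 44 (main counts 173 and 138). Of the 10 genes, the fit of only the libraries compared called 3 in WT cells, 7 in Def6-/- cells and 2 (Bmp3 and Nog) at day 12, CPM as deposited called 1 at day 12 (Bmp3), and DESeq2 called 1 (Grem1). These are fits on fewer libraries, other scalings or other genes tested, and the cause was not tested further. Among genes called between genotypes the share of higher genes was 43.0% at day 0 and 57.8% at day 12, and with CPM as deposited 72.3% and 70.0%, with DESeq2 17.0% and 71.8% and with edgeR 32.3% and 59.1%.

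With each library left out in turn, all genes called ranged from 154 to 4576 at day 0, from 108 to 458 at day 12, from 886 to 5692 in WT cells, from 927 to 4330 in Def6-/- cells, from 2596 to 6474 in the averaged comparison and from 89 to 3333 for the interaction. Of the 10 genes, the calls ranged from 0 to 3, 0 to 1, 3 to 9, 3 to 7, 6 to 9 and 0 to 4 in the same order. The highest counts of all genes came without WT day 0 replicate 2, except at day 12 between genotypes, where that came without WT day 0 replicate 1. Log2 fold changes that changed sign ranged at day 0 from -0.52 to 0.91 for Bmp3, -0.60 to 0.68 for Bmp4, -0.45 to 0.89 for Bmp6, -0.38 to 0.82 for Grem1, -1.20 to 0.57 for Id1, -0.64 to 0.0084 for Id2, -0.92 to 0.062 for Id3, -0.39 to 0.034 for Nog and -0.036 to 0.26 for Smad6. At day 12 they ranged from -0.24 to 0.66 for Bmp2, -0.053 to 0.0011 for Bmp4, -0.48 to 0.0031 for Bmp6, -0.37 to 2.18 for Grem1, -0.40 to 0.30 for Id1, -0.052 to 0.086 for Id3 and -0.050 to 0.063 for Smad6. For the interaction they ranged from -0.66 to 0.23 for Bmp2, -0.71 to 0.58 for Bmp4, -1.13 to 0.21 for Bmp6, -0.59 to 1.96 for Grem1, -0.62 to 1.15 for Id1, -0.16 to 0.49 for Id2, -0.045 to 0.94 for Id3 and -0.25 to 0.042 for Smad6. The Grem1 day change in Def6-/- cells ranged from -1.65 to 0.90.

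The labels number the replicates without saying whether the numbers pair the libraries. Same-numbered deviations correlated at 0.327 between WT and Def6-/- cells at day 0 and at 0.152 between the days in Def6-/- cells. The other pairs of groups lay between 0.0023 and 0.088. Pairing was not assumed in the main fit and was tried as the replicate block. With the replicate block the number of all genes called was 360 at day 0, 202 at day 12, 2553 in WT cells, 2281 in Def6-/- cells, 4246 in the averaged comparison and 170 for the interaction. Of the 10 genes it added Bmp4 in WT cells (adjusted p = 0.025, limma) and in Def6-/- cells (adjusted p = 0.033), and changed no other call. Libraries of 2414856 to 3482838 reads on genes limit what can be seen of Bmp3, Bmp2 and Bmp6 at day 0.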
